A study of Homo sapiens with 8 samples.

Results

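The 9 genes described here encode proteins that act at the first steps of T cell receptor signalling. Among them are the kinases LCK, FYN and ZAP70 and the adaptors LAT, LCP2 (the protein SLP-76) and GRAP2 (the protein GADS). The others are the exchange factor VAV1 and the inhibitors CBLB and UBASH3A. The genes were chosen by gene symbol, with earlier results of these data known. All 9 were found among the 63677 genes of the deposited count table. The RNA was that of the established Jurkat line, derived from a human T-cell acute lymphoblastic leukaemia, which in all groups, the controls included, carried the transcription factor TAL1 fused to the FKBP12 tag. For 24 hours the TAL1-FKBP12 cells received dTAG-13, which directs a tagged protein to the ubiquitin ligase cereblon for degradation, or GSI, which commonly stands for a gamma-secretase inhibitor and so for a block of NOTCH receptor activation, or both agents, called the combination here, or DMSO, the solvent. Each of the 4 groups had 2 libraries. Doses are not given in the labels, which also do not say whether the cells were 1 clone or whether replicates were separate cultures, so a p-value here covers the scatter among the sequenced samples alone, and that scatter may be technical.

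When the receptor binds its ligand, LCK and FYN, kinases of the Src family, phosphorylate the tails of the CD3 and zeta chains. ZAP70, a kinase of the Syk family, docks there and phosphorylates the membrane adaptor LAT and the cytosolic adaptor LCP2. GRAP2 holds LCP2 to LAT, and VAV1, bound to LCP2, loads Rac-type GTPases with GTP and so links the receptor to the actin skeleton. CBLB attaches ubiquitin to proteins of this complex, and UBASH3A, a phosphatase-like protein, restrains the pathway. Jurkat derivatives that lack LCK, ZAP70, LAT or LCP2 were widely used to work out this order.

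Total counts ran from 17544319 to 22180009 per library. All 9 genes were among the 15646 genes expressed highly enough to be tested. The T cell identity of the line was checked with 10 markers, which summed to 2514 to 2945 CPM (counts scaled to the size of the library) per library, TRBC1 being listed at 0. The 8 myeloid markers summed to 0.42 to 0.866 CPM, with FCGR3A, MPO and S100A8 at 0, and the 8 epithelial and stromal markers to 1.82 to 4.1 CPM, with DCN, EPCAM, KRT18, KRT19 and PECAM1 at 0. The 8 erythroid and megakaryocytic markers summed to 14.1 to 18.7 CPM, with HBB and PF4 among those at 0. TAL1 protein was not measured. The TAL1 transcript lay at 145 to 147 CPM with dTAG-13, 198 to 208 CPM with GSI and 197 to 199 CPM with the combination, against 154 to 166 CPM with DMSO; it rose with GSI against DMSO (0.34 on the log2 scale, SE 0.08, adjusted p = 0.0486, edgeR). DTX1, a gene induced by NOTCH, lay at 18.3 to 18.9 CPM with GSI, against 138 to 154 CPM with DMSO. Counts are relative to all RNA of a library, so less RNA per cell and fewer expressing cells cannot be told apart.

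The promoters of LCP2 and GRAP2, the genes with calls below, and of VAV1, whose protein binds that of LCP2, are shown because TAL1 binds E-boxes. These windows reach from 250 bases before to 50 bases after a transcript start in RefSeq (GRCh38.p14, another build than the hg19 of the counts), in gene direction, and GRAP2 has 2 of them. Capitals mark E-boxes (CANNTG) and AGGAAGTG, a motif of the kind bound by ETS factors, in either orientation. The windows lie at chr5:170297728-170298027, minus strand for LCP2, at chr19:6772458-6772757, plus strand for VAV1, and at chr22:39926354-39926653, plus strand and chr22:39946567-39946866, plus strand for GRAP2.
LCP2: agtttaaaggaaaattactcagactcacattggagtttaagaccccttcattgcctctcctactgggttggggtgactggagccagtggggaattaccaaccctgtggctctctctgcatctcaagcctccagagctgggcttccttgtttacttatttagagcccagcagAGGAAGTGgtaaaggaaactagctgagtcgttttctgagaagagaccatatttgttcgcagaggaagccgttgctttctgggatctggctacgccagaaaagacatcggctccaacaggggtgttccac
VAV1: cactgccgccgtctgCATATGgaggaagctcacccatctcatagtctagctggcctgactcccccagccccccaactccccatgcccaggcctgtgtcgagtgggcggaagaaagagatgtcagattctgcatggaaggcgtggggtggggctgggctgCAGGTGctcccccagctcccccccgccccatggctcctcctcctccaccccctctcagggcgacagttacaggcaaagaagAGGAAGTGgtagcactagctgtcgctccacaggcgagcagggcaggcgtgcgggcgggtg
GRAP2 window 1: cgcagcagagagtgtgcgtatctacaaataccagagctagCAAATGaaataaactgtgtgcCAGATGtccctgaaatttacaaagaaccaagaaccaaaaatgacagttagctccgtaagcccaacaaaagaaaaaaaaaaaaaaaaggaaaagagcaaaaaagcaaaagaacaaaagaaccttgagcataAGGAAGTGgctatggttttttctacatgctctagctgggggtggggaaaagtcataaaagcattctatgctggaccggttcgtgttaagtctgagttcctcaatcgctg
GRAP2 window 2: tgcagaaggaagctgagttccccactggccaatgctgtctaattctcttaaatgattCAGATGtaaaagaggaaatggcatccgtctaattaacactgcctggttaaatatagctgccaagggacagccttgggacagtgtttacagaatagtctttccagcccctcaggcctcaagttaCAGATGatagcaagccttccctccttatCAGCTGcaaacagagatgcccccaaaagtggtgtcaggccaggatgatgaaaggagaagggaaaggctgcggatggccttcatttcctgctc

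The LCP2 window held 0 E-boxes, the VAV1 window held 2, and the GRAP2 windows held 2 and 3. Of the 8 genes with windows, 7 (all but LCP2) had an E-box in any window. Counted by window, 13 of the 20 windows of the 8 genes held an E-box. At least 1 E-box was present in 68.7% of the 35116 RefSeq windows of this length, and in any window of 73.1% of their 27305 genes. AGGAAGTG was chosen after these sequences were read. It was present in the LCP2 window, the VAV1 window and the first GRAP2 window, in 1 of the 2 LCK windows, and in 3.65% of all windows. As the choice fixed its presence in the windows shown, the share of all windows cannot test an enrichment in these genes. TGGGAA, the core bound by RBPJ, the DNA-binding partner of NOTCH, was in 24.0% of all windows and in 5 of the 20 windows of the genes studied. These were windows of LCK, FYN, ZAP70 and LAT, and none of LCP2, VAV1 or GRAP2. TGTGGT, of the kind bound by RUNX factors, was in 13.1% of all windows and in 3 of the 20 windows here, of LCK, FYN and LAT. AGATAA, of the kind bound by GATA factors, was in 10.3% of all windows and, among the genes studied, in 1 window of FYN. Each motif was searched on both strands, and a match is a description of letters, not a bound site. Windows for 8 of the 9 genes were used, without UBASH3A.

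The levels of the 9 genes spanned a wide range. Per kilobase of exon, taken from GENCODE v29 as an approximation of the authors' gene models, LCK was highest at 225 ± 17.8 CPM per kilobase (mean ± SD over the 8 libraries of all groups), followed by ZAP70 at 72.1 ± 5.05 and GRAP2 at 33.9 ± 5.04. VAV1 (23.7 ± 2.45), FYN (21.8 ± 0.976) and LCP2 (18.6 ± 3.56 CPM per kilobase) overlapped from library to library and have no firm order, and the lowest GRAP2 library (27.9) lay within the range of VAV1 (20.8 to 27.96). UBASH3A stood at 10.4 ± 0.847 CPM per kilobase, below the lowest library of LCP2. LAT (1.69 ± 0.131) and CBLB (1.498 ± 0.182 CPM per kilobase) were lowest and overlapped. In GENCODE v29, 2112 of the 4430 exon bases of LAT are shared with another gene on the same strand and 454 with one on the opposite strand, so reads can be lost to these genes and the LAT level is uncertain. LCP2 shares 123 of 7244 exon bases with C5orf58 on the opposite strand, which had 5 to 35 counts per library.

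**Figure D1:**
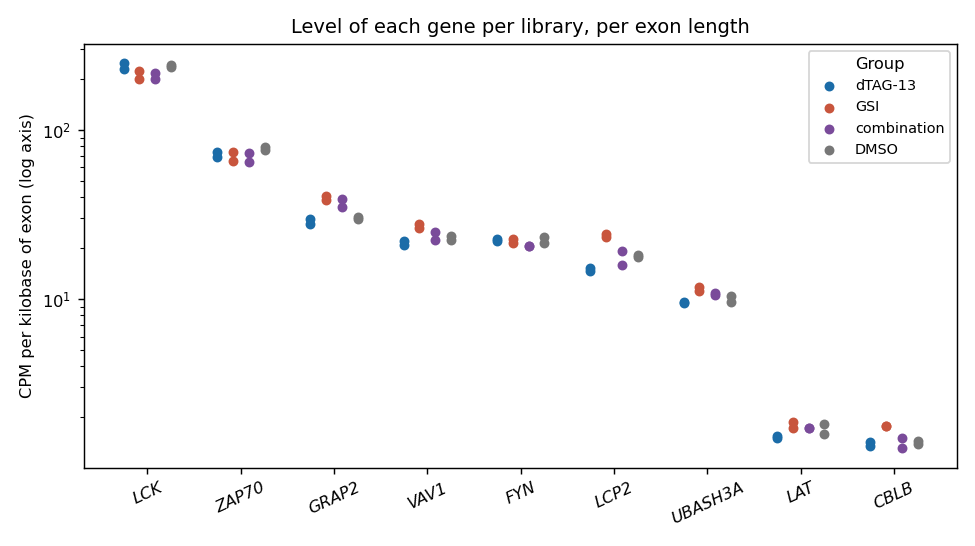
Level of each of the 9 genes in each library, in CPM per kilobase of exon on a log axis, with 2 points per group. LCK lies above all other genes in every library (200 to 248 CPM per kilobase), and LAT and CBLB lie lowest (1.31 to 1.86).

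The group means of the kinases varied least across treatments. LCK had 768 and 829 CPM with dTAG-13, 667 and 746 CPM with GSI, and 671 and 729 CPM with the combination, against 808 and 784 CPM with DMSO. All 4 libraries with GSI lay below all 4 without it. Averaged over both backgrounds (GSI minus DMSO and combination minus dTAG-13), the log2 fold change of GSI was -0.18 (SE 0.07, 95% interval -0.33 to -0.04), which did not pass (adjusted p = 0.128, edgeR's quasi-likelihood test over all genes) except without the filter on low counts (adjusted p = 0.0467). ZAP70 had 356 and 378 CPM with dTAG-13, 335 and 379 CPM with GSI, and 331 and 374 CPM with the combination, against 391 and 404 CPM with DMSO. Every treated library lay below both DMSO libraries, while the treated groups overlapped each other, and the largest of the 3 differences from DMSO was that of the combination, at -0.17 on the log2 scale (SE 0.09, adjusted p = 0.512). FYN stayed between 152 and 172 CPM in the 8 libraries, the smallest ratio of highest to lowest library among the 9 genes (1.13), with 153 and 152 CPM in the combination and 172 and 158 CPM with DMSO. The average effect of GSI on FYN was -0.06 (SE 0.06, 95% interval -0.18 to 0.06), and that of dTAG-13 -0.05 (SE 0.06, 95% interval -0.17 to 0.07).

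Among the adaptors, LCP2 moved with both drugs, in opposite directions. LCP2 had 110 and 106 CPM with dTAG-13, 169 and 175 CPM with GSI, and 116 and 140 CPM with the combination, against 129 and 131 CPM with DMSO. The dTAG-13 libraries were the lowest 2 of the 8 and the GSI libraries the highest 2, while the combination libraries lay on either side of DMSO. Averaged over both backgrounds, dTAG-13 lowered LCP2 (log2 fold change -0.35, SE 0.07, adjusted p = 0.0397), that is to 0.785 times its level, with every dTAG-13 library below every DMSO library and every combination library below every GSI library. GSI raised LCP2 on average (log2 fold change 0.32, SE 0.07, 95% interval 0.18 to 0.47, adjusted p = 0.0125), with higher values in every library in both backgrounds. Taken 1 background at a time, dTAG-13 against DMSO gave -0.27 (SE 0.09, adjusted p = 0.998) and the combination against GSI gave -0.43 (SE 0.09, adjusted p = 0.234). GSI against DMSO gave 0.40 (SE 0.09, adjusted p = 0.0518) and the combination against dTAG-13 gave 0.24 (SE 0.09, adjusted p = 0.298), so no single pair of groups passed for LCP2. The authors' deposited table for GSI against DMSO has LCP2 at a log2 fold change of 0.39 (adjusted p = 0.0222), and their deposited table for dTAG-13 at -0.27 (adjusted p = 0.246). The call of the average dTAG-13 effect was lost when any 1 library other than combination replicate 2 was left out (adjusted p up to 0.283). The average GSI effect was lost without DMSO replicate 1, DMSO replicate 2 or dTAG-13 replicate 2 (adjusted p 0.0775 to 0.0804).

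GRAP2, the adaptor that couples LCP2 to LAT, rose with GSI. It had 173 and 184 CPM with dTAG-13, 237 and 253 CPM with GSI, and 217 and 242 CPM with the combination, against 184 and 191 CPM with DMSO. All 4 libraries with GSI lay above all 4 without it. GSI raised GRAP2 on average (log2 fold change 0.38, SE 0.06, adjusted p = 0.00274), or 1.30-fold, and this call held in all 12 alternatives run, with adjusted p up to 0.0317. Against DMSO alone the log2 fold change of GSI was 0.39 (SE 0.08, adjusted p = 0.0397), and the authors' deposited table gives 0.38 (adjusted p = 0.0256). That single comparison did not pass when any of its 4 libraries was left out (GSI replicate 1 or 2, DMSO replicate 1 or 2; adjusted p 0.0699 to 0.37) or when the 4 libraries were fitted alone (adjusted p = 0.0534). The combination stood at 0.36 (SE 0.08, adjusted p = 0.0662) against dTAG-13 and at 0.29 (SE 0.08, adjusted p = 0.141) against DMSO. The average effect of dTAG-13 on GRAP2 was -0.08 (SE 0.06, 95% interval -0.21 to 0.05). LAT, the membrane adaptor, had 6.63 and 6.85 CPM with dTAG-13, 7.70 and 8.25 CPM with GSI, and 7.68 and 7.67 CPM with the combination, against 7.05 and 8.08 CPM with DMSO. Its libraries held 122 to 178 counts, and its average effects, 0.13 (SE 0.10) for GSI and -0.11 (SE 0.10) for dTAG-13, were close to their errors.

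**Figure D2:**
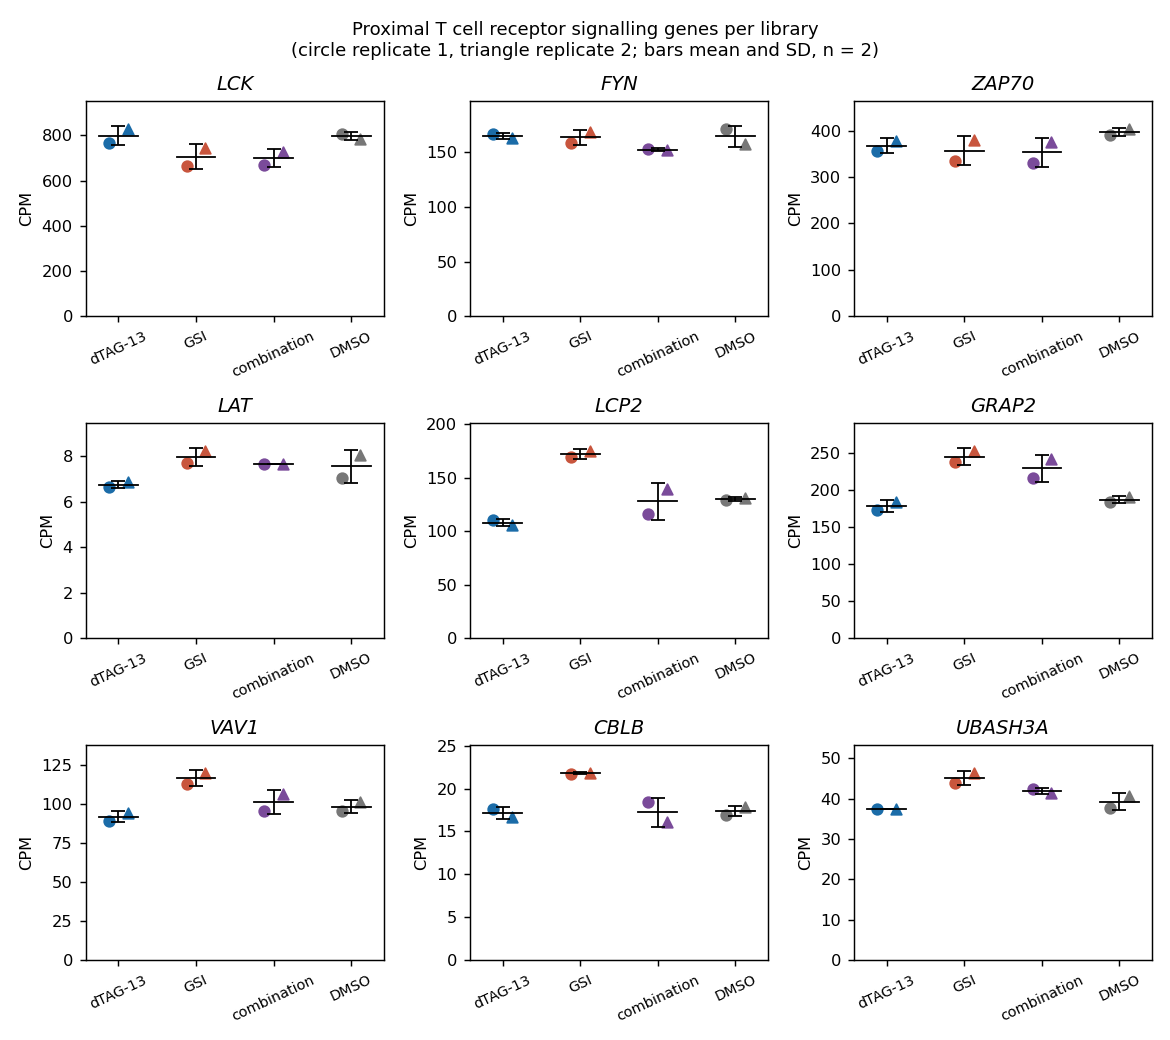
CPM of each gene in the 2 libraries of each group, with the vertical axis from 0; circles are replicate 1, triangles replicate 2, and bars give the mean and SD. LCP2 is highest with GSI (169 and 175 CPM) and lowest with dTAG-13 (110 and 106 CPM), and all 4 libraries with GSI lie above the others for GRAP2.

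VAV1, the exchange factor, was like LCP2 highest with GSI and lowest with dTAG-13, at smaller differences that did not pass the test. It had 89.5 and 94.6 CPM with dTAG-13, 113 and 120 CPM with GSI, and 95.8 and 107 CPM with the combination, against 95.6 and 102 CPM with DMSO. Both GSI libraries were above all 6 others, and both dTAG-13 libraries were below them. The average log2 fold change of GSI was 0.19 (SE 0.06, adjusted p = 0.0825) and that of dTAG-13 -0.15 (SE 0.06, adjusted p = 0.708), and neither passed.

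The inhibitors gave no call. CBLB had 17.6 and 16.6 CPM with dTAG-13, 21.7 and 21.8 CPM with GSI, and 18.4 and 16.1 CPM with the combination, against 16.9 and 17.8 CPM with DMSO. The GSI libraries stood above all others, and the other 3 groups overlapped. The log2 fold change of GSI against DMSO was 0.33 (SE 0.11, adjusted p = 0.186), and that of the combination against GSI -0.34 (SE 0.11, adjusted p = 0.886). The combination departed from additivity, the 2 single effects summed, by -0.32 (SE 0.16, adjusted p = 0.9999), the largest in size among the 9 genes. UBASH3A had 37.4 and 37.3 CPM with dTAG-13, 43.9 and 46.4 CPM with GSI, and 42.3 and 41.3 CPM with the combination, against 37.7 and 40.6 CPM with DMSO. All 4 libraries with GSI lay above all 4 without it. The GSI libraries were the highest and the dTAG-13 libraries the lowest of the 8. The share of all genes with either order of the 8 libraries was not counted, here or for LCK, GRAP2, LCP2 and VAV1. The average log2 fold change of GSI was 0.18 (SE 0.06, adjusted p = 0.102).

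**Figure D3:**
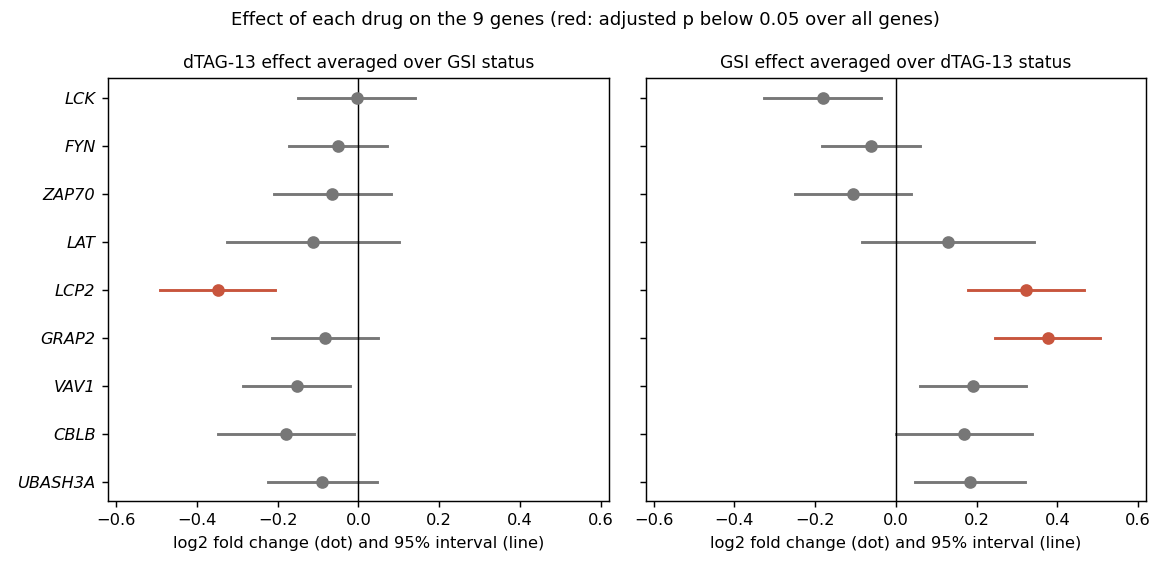
Log2 fold change of each drug, averaged over both backgrounds, for the 9 genes, with dots for the estimate and lines for the 95% interval; red marks an adjusted p below 0.05 over all genes. LCP2 passes in both panels with opposite signs (-0.35 and 0.32), and GRAP2 passes with GSI (0.38).

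The 9 genes were chosen with earlier results of these data known, so the counts, medians and signs below are a description and no test. Counted over the 9 genes, GSI on average raised 2 (LCP2 and GRAP2), lowered 0 and left 7 short of the threshold. Over all genes tested, 3.38% were called higher and 3.56% lower. The median log2 fold change of the 9 genes was 0.17, against 0.01 for all genes tested. By role, all 3 kinases had negative values and the other 6 genes positive ones, where 51.6% of all genes had a value above 0. On average dTAG-13 lowered 1 (LCP2), raised 0 and left 8 short of the threshold, where 0.422% of all genes were called lower and 0.0767% higher. All 9 values were negative (median -0.09, against 0.00 for all genes, 51.0% of which were above 0), that of LCK so close to 0 that its sign changed without the filter on low counts and without some libraries. In single comparisons, GSI against DMSO gave 1 call among the 9 genes (GRAP2), with 1.74% of all genes called, and 5 of the 9 at an unadjusted p below 0.05, as were 14.0% of all genes. Both GSI libraries lay above both DMSO libraries for 5 of the 9 genes and below for 2, where 22.6% and 20.9% of all genes did so. For dTAG-13 against DMSO, edgeR and DESeq2 both called 0 of the 9, with 0.0192% of all genes called by edgeR, and 1 of the 9, LCP2, had an unadjusted p below 0.05, as did 3.84% of all genes. Both dTAG-13 libraries lay below both DMSO libraries for 5 of the 9 and above for 0, where 17.6% and 17.7% of all genes did so. For the combination against DMSO, both tools called 0 of the 9, with 1.31% of all genes called by edgeR, and 1 of the 9, GRAP2, had an unadjusted p below 0.05, as did 12.4% of all genes. Both combination libraries lay above both DMSO libraries for 2 of the 9 (GRAP2 and UBASH3A) and below for 3 (the kinases), where 21.6% and 20.5% of all genes did so. For the combination against GSI, both tools called 0 of the 9, with 0.0575% of all genes called by edgeR. An unadjusted p below 0.05 was found for 3 of the 9 (LCP2, VAV1 and CBLB) and 4.14% of all genes. Both combination libraries lay below both GSI libraries for 6 of the 9 and above for 0, where 14.0% and 11.8% of all genes did so. For the combination against dTAG-13, edgeR called 0 of the 9 and DESeq2 called 1, GRAP2 (adjusted p = 0.028), with 1.21% of all genes called by edgeR. An unadjusted p below 0.05 was found for 2 of the 9 (LCP2 and GRAP2) and 13% of all genes. Both combination libraries lay above both dTAG-13 libraries for 5 of the 9 and below for 2 (LCK and FYN), where 22.2% and 21.3% of all genes did so. These comparisons share libraries and are not independent of each other. A departure of the combination from additivity was called for 0 of all genes tested (0%) by both tools, with 1.66% of all genes and 0 of the 9 at an unadjusted p below 0.05.

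Some other genes of the same signalling step moved with GSI. The lists used here and below were chosen with earlier results of these data known, so their counts and medians are a description and no test. Of 38 other proximal signalling genes, all of them tested, GSI on average raised 11 and lowered 2, and 25 did not pass (median 0.11, against 0.01 for all genes). Of all genes tested, 3.38% were called higher and 3.56% lower. RASGRP1, which activates Ras downstream of LAT, had 229 and 219 CPM with GSI and 228 and 224 CPM with the combination, against 125 and 120 CPM with dTAG-13 and 116 and 120 CPM with DMSO, a rise of 0.90 on the log2 scale (SE 0.05, adjusted p = 1.04e-06). PTPRC, the phosphatase CD45 that keeps LCK active, rose by 0.77 (SE 0.06, adjusted p = 1.34e-05). SLA, an adaptor that dampens receptor signalling, rose by 0.43 (SE 0.07, adjusted p = 0.00236), FYB, the adaptor ADAP that binds LCP2, by 0.52 (SE 0.09, adjusted p = 0.00546), and DOK2, an inhibitory adaptor, by 0.41 (SE 0.08, adjusted p = 0.00678). DGKZ, which removes the diacylglycerol that RASGRP1 needs, fell by 0.33 (SE 0.06, adjusted p = 0.00407). PLCG1, a phospholipase that binds LAT (0.04, SE 0.05), and CSK, the kinase that inhibits LCK (-0.10, SE 0.07), did not pass. In the single comparisons, 3 of the 38 rose and 1 fell with GSI against DMSO (RASGRP1, PTPRC and SLA higher, DGKZ lower), and 3 rose and 1 fell with the combination against DMSO (RASGRP1, PTPRC and FYB higher, DGKZ lower). With the combination against dTAG-13, 2 rose, RASGRP1 and PTPRC. Over all genes tested, 1.74%, 1.31% and 1.21% were called in these comparisons, in that order and in either direction.

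dTAG-13 on average lowered 2 of the 38 and raised 0 (median -0.07, against 0.00 for all genes). Of all genes tested, 0.422% were called lower and 0.0767% higher. The 2 lowered genes were SLA, by -0.37 (SE 0.07, adjusted p = 0.0321), and CD5, a surface receptor that restrains T cell receptor signalling, by -0.29 (SE 0.05, adjusted p = 0.0402). SLA had 171 and 179 CPM with dTAG-13, 292 and 321 CPM with GSI, and 207 and 247 CPM with the combination, against 219 and 217 CPM with DMSO, so it passed with both drugs in opposite directions, as LCP2 did. SLA was also the gene whose log2 CPM followed LCP2 most closely over the 8 libraries (Pearson r = 0.982 among 10229 genes of at least 5 CPM), before ARHGAP30 (0.981) and TPM4 (0.98). For GRAP2 the closest were PRF1 (0.987), ACTB (0.985) and CDKN2D (0.983). With 8 libraries in 4 groups such values are a description only.

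**Figure D4:**
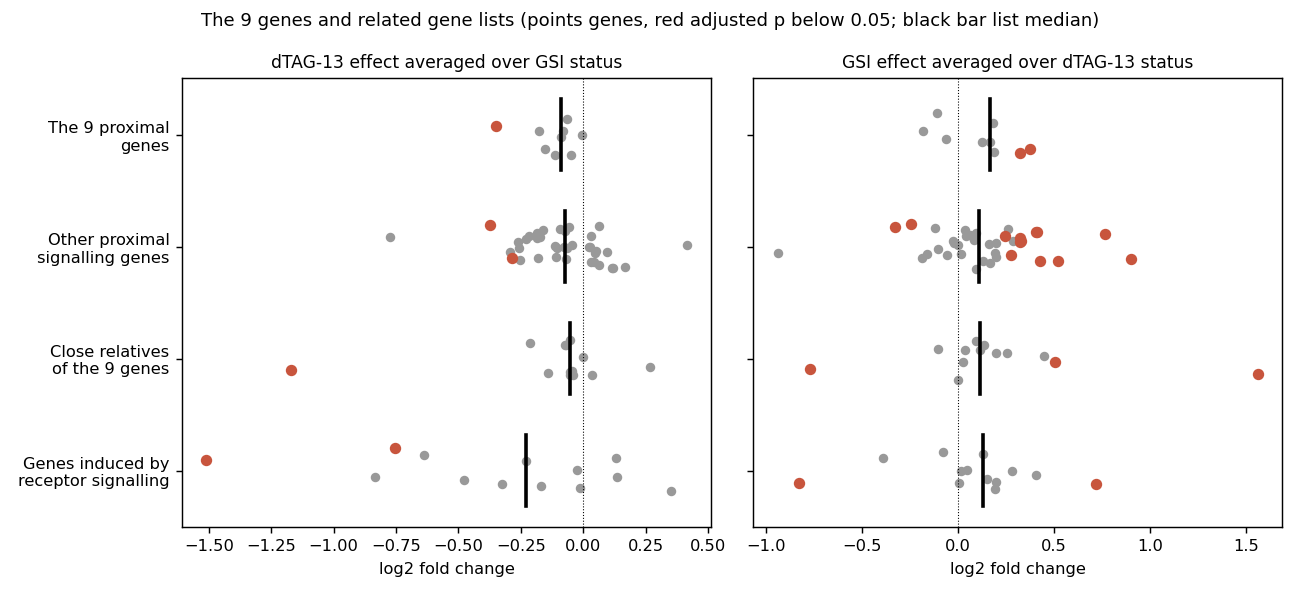
Log2 fold change of each drug, averaged over both backgrounds, for the 9 genes and 3 related lists; points are genes, jittered vertically, red marks an adjusted p below 0.05 over all genes, and the black bar is the list median. With GSI, 11 of 38 other proximal genes are red on the right and 2 on the left, and LCP2 is the 1 red point of the 9 genes with dTAG-13. Over all genes tested, GSI on average raised 3.38% and lowered 3.56%. The lists were chosen with earlier results of these data known.

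Of 18 close relatives of the 9 genes, 13 were tested. With GSI on average, UBASH3B, the relative of UBASH3A, rose by 0.51 (SE 0.06, adjusted p = 4.6e-04), and FGR, a relative of LCK and FYN in the Src family, fell by 0.77 (SE 0.18, adjusted p = 0.0231) at 2.12 to 5.80 CPM. UBASH3B was also called higher with GSI against DMSO (0.49) and with the combination against dTAG-13 (0.52). SYK, the relative of ZAP70, was expressed at 95.1 to 113 CPM and did not pass for GSI (0.09, SE 0.06), nor did VAV3 (0.00, SE 0.06). Among genes induced by T cell receptor signalling, 13 of 20 were tested. dTAG-13 lowered 2 on average, EGR1 (-1.51, SE 0.26, adjusted p = 0.0267), an early transcription factor at 0.599 to 2.72 CPM, and CD69 (-0.76, SE 0.13, adjusted p = 0.029), an early activation antigen. GSI raised 1, CD69 (0.72, SE 0.13, adjusted p = 0.0065), and lowered 1, MYC (-0.83, SE 0.06, adjusted p = 1.1e-05), the growth regulator that NOTCH also induces. Over all genes tested, dTAG-13 on average lowered 0.422%, and GSI on average raised 3.38% and lowered 3.56%. MYC was also called lower with GSI against DMSO (-0.94), with the combination against DMSO (-0.70) and with the combination against dTAG-13 (-0.72), and CD69 higher with GSI against DMSO (0.93).

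Markers of B cells moved with GSI. The 8 markers summed to 97.8 to 120 CPM with GSI and 103 to 108 CPM with the combination, against 76.1 to 78.7 CPM with dTAG-13 and 70.1 to 81.4 CPM with DMSO, mostly from CD79A, a chain of the B cell receptor (88.6 to 109 CPM with GSI, against 60.3 to 70.7 CPM with DMSO), and none of the 8 was at 0 in all libraries. The part of this shift in the values of LCP2, GRAP2 and the other genes was not tested. Replicate libraries lay further apart under GSI (a chi-square of 12.5 for each degree of freedom) and under the combination (11.8) than under dTAG-13 (5.6) and DMSO (4.25).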

How the data were processed

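RNA of 8 libraries, 2 for each of 4 treatments of 24 hours, was made into paired-end, strand-specific libraries, per the labels' protocols. STAR 2.5.2a, featureCounts, DESeq2 1.12.4 and the build hg19 are named in the submitters' processing notes; the gene annotation and the strand setting of the counting were not given in the sources used here. The authors deposited integer counts per gene, and 3 tables of log2 fold changes over DMSO with raw and adjusted p-values. Counts were filtered with filterByExpr, TMM-scaled and modelled by quasi-likelihood with 1 mean per group (8 libraries, 4 groups) and 4 residual degrees of freedom (edgeR 4.0.16, R 4.3.3), tested on simulated data. Tests were 2-sided, with Benjamini-Hochberg adjustment across the 15646 genes that passed the filter and a threshold of 0.05. Average effects are means of a drug's effect with and without the other drug. Totals of 17544319 to 22180009 counts set the precision. Replicates of a group differed by more than sampling noise. Alternatives were DESeq2 1.42.0 (Wald test, size factors), no filter on low counts, a replicate block, fewer libraries in the fit and leaving out each library. Named genes are the 9 genes, 6 fixed ones, and called genes of the lists, up to 6 per list and comparison by p, except some that are not reported here; genes most alike were ranked by Pearson r. Exon lengths are from GENCODE v29, on GRCh38. The genes and lists were chosen with earlier results of these data known.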

Additional observations from a re-analysis of the deposited data

How the results depend on the processing

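The GSI effect averaged over both backgrounds called 2 of the 9 genes in the fit reported, and 1 to 2 when 1 library was left out. The averaged dTAG-13 effect called 1, and 0 to 1 without a library. GSI against DMSO called 1, and 0 to 0 without a library; it called 2 (with LCP2) without the filter on low counts, with DESeq2 and with the replicate block. Without the filter, 1 of the 9 was called for the combination against GSI and 1 for the combination against dTAG-13; DESeq2 and the replicate block also called 1 against dTAG-13.

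Calls over all genes moved more. Without the filter they were 51 for dTAG-13 against DMSO (3 with it), 660 for GSI against DMSO (272), 532 for the combination against DMSO (205), 59 for the combination against GSI (9), 563 for the combination against dTAG-13 (189), 165 for the averaged dTAG-13 effect (78) and 1815 for the averaged GSI effect (1086). DESeq2 called 21 for dTAG-13 against DMSO and 20 for the combination against GSI. The libraries compared, fitted alone, gave 71 for dTAG-13 against DMSO, 3 for the combination against GSI and 96 for the combination against dTAG-13. Leaving out 1 library gave 0 to 2 for dTAG-13 against DMSO, 32 to 232 for GSI and 38 to 258 for the combination against DMSO, 43 to 264 for the combination against dTAG-13, 14 to 78 and 342 to 1524 for the averaged dTAG-13 and GSI effects, and 0 to 1 for the departure of the combination. The cause was not tested; leaving out a library leaves fewer degrees of freedom, and the lone library of a group is assumed to vary like the other groups.

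Replicate numbers were checked for pairing: the differences of replicate 1 from 2 correlated across genes at 0.109 to 0.187 among dTAG-13, GSI and the combination, and at -0.0915 to -0.0178 between these and DMSO. Over all genes, a shared number thus went with a shared deviation only weakly, and not in DMSO, and the samples were not treated as paired. For ZAP70, GRAP2 and VAV1, however, replicate 2 lay above replicate 1 in all 4 groups, DMSO included. For the others of the 9 genes the order differed between groups. The replicate block gave 23 calls for dTAG-13 against DMSO, 559 for GSI against DMSO, 413 for the combination against DMSO, 34 for the combination against GSI, 476 for the combination against dTAG-13, and 135 and 1822 for the averaged dTAG-13 and GSI effects. It also called VAV1 higher for the averaged GSI effect (adjusted p = 0.0319), and the fit without the filter called LCK lower for it (adjusted p = 0.0467).

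Values near 0 changed sign. FYN for dTAG-13 against DMSO was -0.000313 with DESeq2's size factors, and LCK for the averaged dTAG-13 effect was 0.00171 without the filter. Leaving out 1 library gave, for dTAG-13 against DMSO, -0.0513 to 0.0495 for LCK, -0.0547 to 0.0628 for FYN and -0.071 to 0.0188 for CBLB. For GSI against DMSO it gave -0.067 to 0.050 for FYN and -0.0214 to 0.177 for LAT. For the combination against DMSO it gave -0.0745 to 0.124 for LAT, -0.17 to 0.104 for LCP2, -0.0422 to 0.115 for VAV1 and -0.113 to 0.0849 for CBLB. For the combination against GSI it gave -0.0912 to 0.0718 for LCK and -0.106 to 0.0775 for ZAP70, and against dTAG-13 -0.15 to 0.028 for ZAP70 and -0.092 to 0.106 for CBLB. It gave -0.0431 to 0.0383 for LCK in the averaged dTAG-13 effect. For the departure of the combination it gave -0.0961 to 0.0669 for LCK, -0.109 to 0.0522 for GRAP2 and -0.10 to 0.0106 for UBASH3A. None of these was called in the fit reported.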
